A study of Mus musculus with 8 samples.

Results

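The 39 HOX genes of the 4 mouse clusters were followed in RNA sequencing of cells sorted as endothelial from E15.5 mouse embryos. They were all genes of the deposited table, 39 of 23337, whose symbol is Hox, a cluster letter from a to d and a number: 11 in cluster A, 10 in cluster B, 9 in cluster C and 9 in cluster D. All animals were described as Cdh5-CreERT2(PAC);Rosa26fsTRAP mice, in which the promoter of the endothelial cadherin gene Cdh5 drives a tamoxifen-inducible Cre recombinase and the Rosa26 locus carries a reporter. The genotype field of every sample nevertheless reads wild type. Tamoxifen was given to the pregnant mother by gavage at E12.5, or not given, and whole embryos were the source of the sorted cells, so that every level of the body axis could contribute. Tamoxifen and any Cre activity it released cannot be told apart in this design. The labels list 8 samples, 4 in each group, and name no litter, embryo or dam for any of them. Each p-value below is therefore a measure of the spread between the samples alone, and this spread may be technical.

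The deposited table has a header of 8 library names over 9 columns of values, so the names fit in more than 1 way. Counting the gene symbol as column 1, columns 3 to 5 are no-tamoxifen libraries and columns 7 to 9 tamoxifen libraries whether the names are placed over the first or the last 8 value columns. These 6 libraries were compared, 3 per group, and are called no-tamoxifen libraries 1 to 3 and tamoxifen libraries 1 to 3 in table order. Column 6 is a no-tamoxifen library under one placement and a tamoxifen library under the other. Column 10 is a tamoxifen library under one placement and unnamed under the other. Both columns are shown apart.

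HOX genes encode transcription factors with a DNA-binding homeodomain, and their order along each cluster follows the order in which they are expressed along the body axis. Low-numbered genes at the 3′ end of a cluster are expressed from the hindbrain backwards, middle groups in the trunk, and the highest-numbered groups in the tail, distal limb and urogenital region. Genes of the same number in different clusters are paralogs, and HOX proteins bind DNA together with PBX and MEIS cofactors. Endothelial cells, fibroblasts, cartilage and blood progenitors all express HOX genes, each with a partly different set. In these bulk libraries fewer cells of a type and less RNA per cell cannot be told apart.

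The paralogs are alike in sequence, which bears on how reads can be assigned to them. The homeobox, the 180 bases that encode the homeodomain, is shown for Hoxb9, which had reads in all 6 libraries, and its paralog Hoxc9, which had a single read in them. Sequences are from the annotated mouse transcripts (GENCODE M21), and capitals mark the 29 positions at which they differ.
Hoxb9: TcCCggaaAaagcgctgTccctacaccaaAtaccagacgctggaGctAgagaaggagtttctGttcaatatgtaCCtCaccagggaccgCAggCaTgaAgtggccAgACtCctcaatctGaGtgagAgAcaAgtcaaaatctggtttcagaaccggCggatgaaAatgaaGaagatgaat
Hoxc9: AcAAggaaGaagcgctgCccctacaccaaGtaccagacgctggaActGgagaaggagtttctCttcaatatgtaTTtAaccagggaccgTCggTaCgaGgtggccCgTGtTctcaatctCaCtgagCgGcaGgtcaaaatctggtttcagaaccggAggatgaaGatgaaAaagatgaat
The homeoboxes were identical at 83.89% of bases. Over whole transcripts the longest run of identical bases was 50 between Hoxb9 and Hoxc9. Among all 39 genes it was 52, between Hoxa6 and Hoxb4. A read inside such a run cannot be given to 1 gene by its sequence alone. Exons of the transcript used for 14 of the 39 genes overlap those of another annotated gene, 9 of them on the opposite strand, and strand use in counting is not stated by the labels or notes used here. For 5 of them an overlapping gene is itself in the table, some under an older symbol, so their values are uncertain. These are Hoxaas3 for Hoxa3 and Hoxa7, Hoxa11os for Hoxa11, Hoxc5 for Hoxc10, and Hoxd4 and Hoxd3os1 for Hoxd3. By the same overlaps the values of Hoxc5 and Hoxd4 are uncertain too.

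The labelled cell type was not the only one with abundant transcripts. The 6 libraries held 12212472 to 19908404 reads in genes, of which the ribosomal RNA precursor Rn45s took 29.4% to 38.7%, and 1 read was worth 0.701 to 1.08 normalised reads. The 10 endothelial markers summed to 8118 to 19721 normalised reads per library and the 8 macrophage markers to 28249 to 45252, and no marker of either list was at 0 in all 6 libraries. The 7 neutrophil markers summed to 43001 to 75038 and the 10 markers of haematopoietic progenitors to 15319 to 20853. The 10 mesenchymal markers (such as Col1a1, Pdgfra and Prrx1) summed to 2016 to 4328 without tamoxifen and to 56326, 87053 and 4487 in tamoxifen libraries 1 to 3. The 8 cartilage markers summed to 546 to 762, and to 18018, 15459 and 737. Tamoxifen libraries 1 and 2 therefore stood apart in both lists. Some HOX results that rest on them are also given with tamoxifen library 3 as the only tamoxifen library. Column 6 held 450099 normalised reads of mesenchymal markers, 3576 of endothelial and 533 of macrophage markers, and column 10 held 3259, 5309 and 36890.

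HOX transcripts were few in every library. All 39 genes together had 439, 374 and 420 reads in no-tamoxifen libraries 1 to 3 and 531, 770 and 351 in tamoxifen libraries 1 to 3, or 0.00176% to 0.00552% of the reads in genes. Of the 39, 20 had a read in all 6 libraries, 7 had reads in some libraries of both groups, 10 had reads in tamoxifen libraries only, and Hoxb1 and Hoxc12 had none. The 20 comprised 8 genes of cluster A, 7 of cluster B, 5 of cluster D and none of cluster C. A count of 0 in 1 library allows up to 3 reads, or 2.10 to 3.24 normalised reads. Limits and intervals of this kind cover counting error only.

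**Figure D1:**
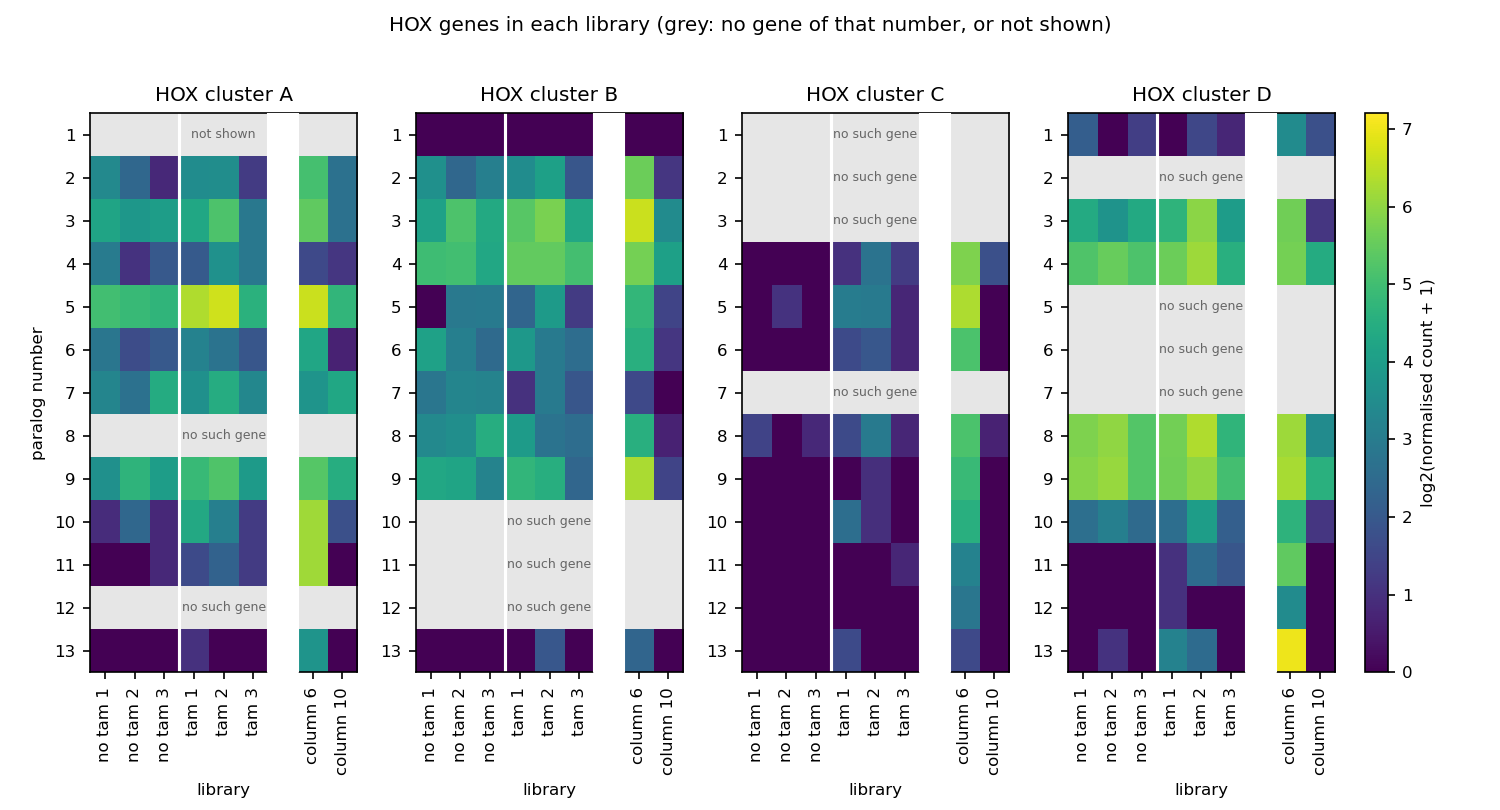
Normalised reads of HOX genes (rows, by cluster and paralog number) in the 6 compared libraries and in columns 6 and 10, coloured as log2(normalised reads + 1). Genes of cluster C are at or near 0 in the no-tamoxifen libraries, and column 6 has reads for 38 of the 39 genes.

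Levels of different genes were compared as normalised reads per kb of annotated transcript. Clusters A, B and D peaked at groups 5, 4 and 9, and all were low at groups 11 to 13. In the mean of the 6 libraries the highest levels were 25.7 per kb for Hoxa5, 24.0 for Hoxd9, 19.7 for Hoxd8, 16.7 for Hoxd4 and 12.97 for Hoxb4. Below them came Hoxb3 at 9.56, Hoxd3 at 8.52 and Hoxa3 at 6.78 per kb. The place of Hoxa5 rested on tamoxifen libraries 1 and 2. Without tamoxifen the order was Hoxd9 at 25.5 ± 6.94 per kb (SD, n = 3), Hoxd8 at 19.8 ± 4.95, Hoxd4 at 15.3 ± 2.09, Hoxa5 at 15.0 ± 1.63 and Hoxb4 at 10.5 ± 2.67. Neighbours in that order differed by less than the sum of their SDs, except that Hoxa5 and Hoxb4 differed by slightly more.

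**Figure D2:**
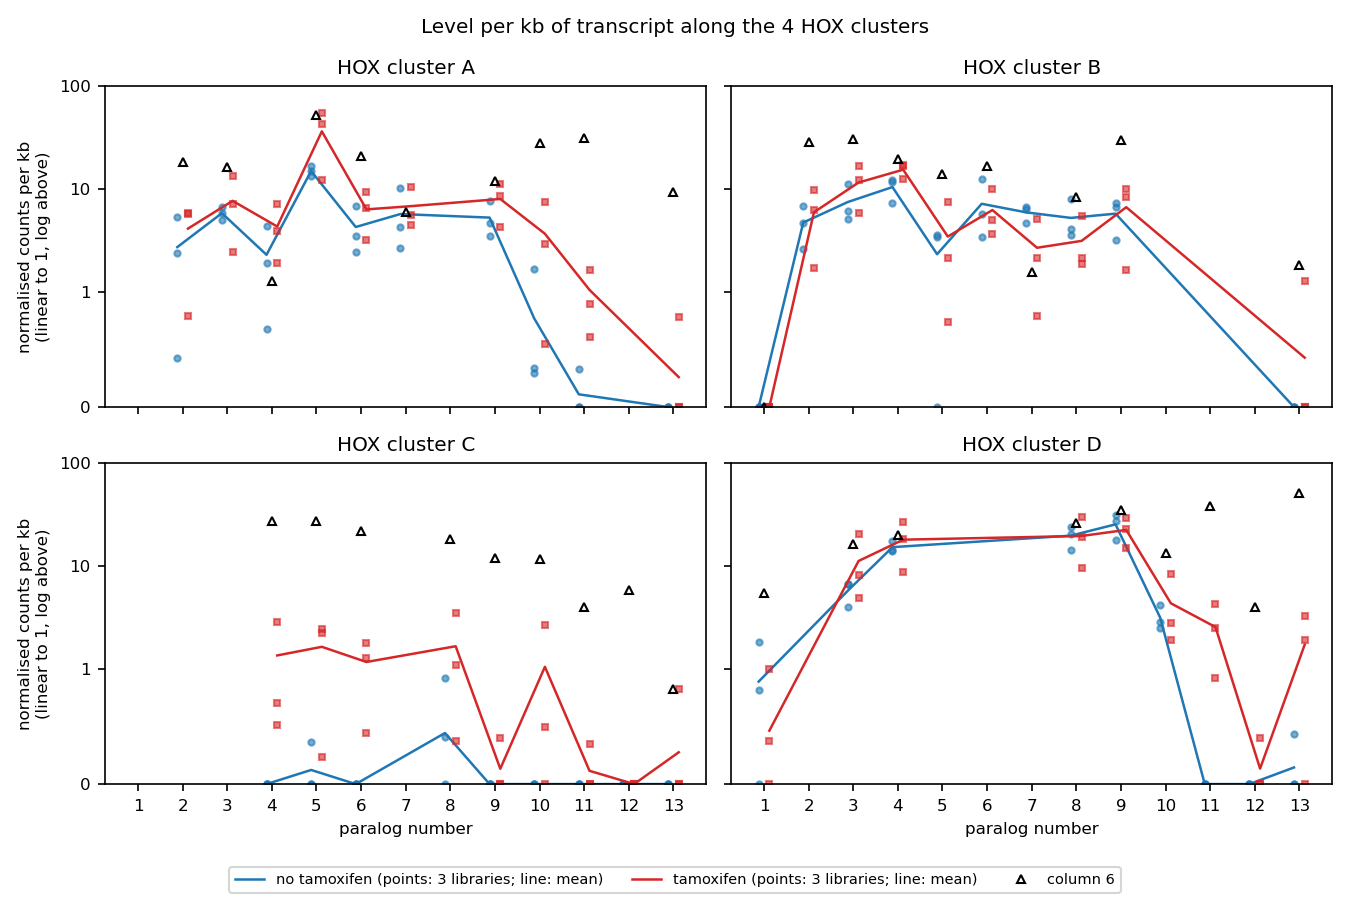
Normalised reads per kb of transcript for HOX genes along each cluster, for the no-tamoxifen and tamoxifen libraries (points are libraries, lines are group means) and for column 6, on an axis that is linear up to 1 and logarithmic above. Hoxa5 leads cluster A, Hoxb4 cluster B and Hoxd9 cluster D, while cluster C stays near 0 except in column 6.

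The leading genes belong to different clusters and positions. Hoxa5 (chr6:52201754-52204587, minus strand, mm10) is a trunk-level gene known for roles in lung and axial skeleton. It had 31.2, 28.1 and 25.1 normalised reads without tamoxifen and 79.9, 101.7 and 23.1 with it. Hoxd9 (chr2:74697727-74700208, plus strand) had 58.1, 67.0 and 38.0 without tamoxifen and 49.2, 62.7 and 32.3 with it. Hoxd8 (chr2:74704615-74707933, plus strand), its neighbour, had 54.7, 63.7 and 38.0, and 50.2, 79.8 and 25.2. The 2 groups overlapped in all 3 genes, and tamoxifen library 3 was the lowest of the 6 for each. Hoxb4 (chr11:96318267-96321638, plus strand), known for its effect on blood stem cell expansion, had 30.4, 31.3 and 19.0 without tamoxifen and 43.0, 43.7 and 32.3 with it. Its 2 groups did not overlap, by a margin of less than 1 normalised read. The second gene of each cluster by level was Hoxa3, Hoxb3, Hoxc5 and Hoxd8. Hoxa3, which acts in thymus and pharyngeal development, had 17.4, 12.96 and 15.2 without tamoxifen and 18.4, 35.2 and 6.31 with it. Hoxb3 had 16.5, 35.6 and 19.8, and 38.9, 53.2 and 18.9. Dividing by the length of all annotated exons in place of 1 transcript moved Hoxa3 to the seventh place in cluster A and put Hoxc5 ahead of Hoxc8, and left the first 2 genes of clusters B and D as they were.

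Paralogs of 1 group were not expressed alike. In group 4, Hoxb4 and Hoxd4 were among the 5 highest genes per kb, whereas Hoxc4 had no read without tamoxifen. Hoxd4 had 36.4, 45.4 and 35.8 normalised reads without tamoxifen and 47.1, 69.4 and 22.4 with it. Hoxc4 had 1.02, 5.70 and 1.40 with tamoxifen, and Hoxa4 had 1.08 to 6.94 without and 3.07 to 11.4 with it. The promoter windows of these paralogs are shown because the group spans the range of levels. Each is 250 bases before to 50 after an annotated start (RefSeq, GRCm38.p6), with CG dinucleotides in capitals. Windows were found for 22 of the 39 HOX genes, 24 in all. Those of Hoxc4 and Hoxd4 belong to starts inside the annotated gene, and none was found for Hoxa4.
Hoxb4, chr11:96318017-96318316, plus strand, 14 CG: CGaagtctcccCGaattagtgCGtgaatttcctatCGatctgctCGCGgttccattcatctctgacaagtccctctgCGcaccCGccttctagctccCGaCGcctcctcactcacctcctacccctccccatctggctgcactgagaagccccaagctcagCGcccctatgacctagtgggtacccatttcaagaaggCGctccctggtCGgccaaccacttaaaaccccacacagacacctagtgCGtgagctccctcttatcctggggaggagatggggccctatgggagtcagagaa
Hoxc4, chr15:103034145-103034444, plus strand, 9 CG: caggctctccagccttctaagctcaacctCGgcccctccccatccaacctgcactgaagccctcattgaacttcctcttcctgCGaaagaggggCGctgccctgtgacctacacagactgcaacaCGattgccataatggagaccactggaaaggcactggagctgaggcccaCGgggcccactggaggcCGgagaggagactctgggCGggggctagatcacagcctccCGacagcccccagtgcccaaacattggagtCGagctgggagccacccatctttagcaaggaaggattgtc
Hoxd4, chr2:74721728-74722027, plus strand, 4 CG: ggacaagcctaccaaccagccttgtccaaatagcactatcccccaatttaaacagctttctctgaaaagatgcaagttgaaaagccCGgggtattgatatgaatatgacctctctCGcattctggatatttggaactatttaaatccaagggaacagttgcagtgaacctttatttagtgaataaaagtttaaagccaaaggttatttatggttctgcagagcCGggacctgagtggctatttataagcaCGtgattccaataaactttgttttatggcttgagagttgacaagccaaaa
The number of CG dinucleotides did not follow the levels of these 3 genes. Over the 24 windows its median was 14.5 (4 to 45), against 7 over all 32851 promoter windows of the same length. Searched on both strands, TGATTNAT, a motif bound by HOX and PBX proteins together, was in 2 of the 24 windows (8.33%, Hoxa2 and Hoxd11) and in 3.22% of all windows. TTTATNG, bound by the CDX proteins that act upstream of HOX genes, was in 2 (8.33%, Hoxb8 and Hoxd4) and in 10.9% of all. The motifs were searched as letters in these windows only.

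Cluster C was all but silent in the 3 no-tamoxifen libraries compared. Its 9 genes together had 2, 1 and 1 reads in no-tamoxifen libraries 1 to 3, all from Hoxc5 and Hoxc8. The same sum was 19, 25 and 6 reads in tamoxifen libraries 1 to 3. In normalised reads the sums were 1.74, 1.08 and 0.761 without tamoxifen and 19.5, 23.8 and 4.21 with it. The groups do not overlap. Overlap of the intervals of single libraries is a description and not a test of a difference. The exact Poisson 95% interval of tamoxifen library 3 (1.54 to 9.16) overlaps those of all 3 no-tamoxifen libraries, of which the highest bound is 6.27. Tamoxifen libraries 1 and 2, with intervals of 11.7 to 30.4 and 15.4 to 35.1, lie above that bound. They are the libraries with the high mesenchymal and cartilage sums given above, whose part in the result was not tested. The direction also depends on the header: the difference in mean sum, 14.6 normalised reads higher with tamoxifen, became -55.9 with column 6 as a no-tamoxifen library and column 10 as a tamoxifen library, and 78.3 with column 6 as a tamoxifen library. As a share of the HOX signal per kb, cluster C held 0.214% to 0.531% without tamoxifen and 1.93% to 3.67% with it.

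Within cluster C the reads were spread over the genes. Hoxc5 had 0, 1.08 and 0 normalised reads without tamoxifen and 7.17, 6.65 and 0.701 with it. Hoxc8, a thoracic-level gene, had 1.74, 0 and 0.761, and 2.05, 6.65 and 0.701, so its groups overlap. Hoxc6 had none without tamoxifen and 2.05, 2.85 and 0.701 with it. Hoxc10, a gene of the lumbar level and hindlimb and the highest-numbered of the cluster with a mean of at least 1 normalised read, had none without tamoxifen and 5.12, 0.950 and 0 with it. Hoxc9, Hoxc11 and Hoxc13 had reads in 1 tamoxifen library each. No gene of the cluster had more than 7 reads in any of the 6 libraries.

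**Figure D3:**
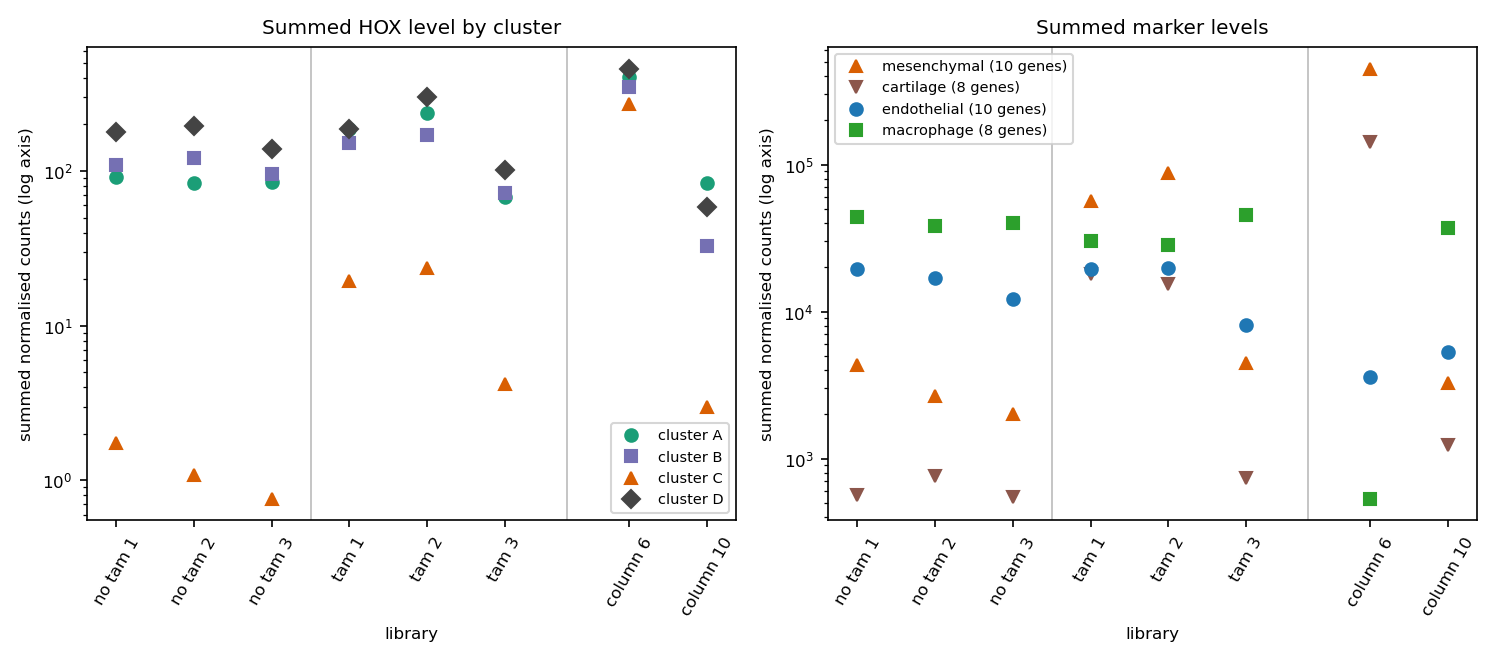
Summed normalised reads, on log axes, of each HOX cluster (left) and of 4 marker lists (right) in the 6 compared libraries and in columns 6 and 10, with 1 point per library. Clusters A, B and D overlap between the groups, whereas the 3 tamoxifen values of cluster C (4.21 to 23.8) lie above the no-tamoxifen values (0.761 to 1.74), and tamoxifen libraries 1 and 2 also stand out in mesenchymal and cartilage markers.

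The other 3 clusters did not separate the groups. Cluster A summed to 92.0, 84.3 and 85.2 normalised reads without tamoxifen and 187, 238 and 68.0 with it. Cluster B summed to 109, 122 and 95.9, and 150.6, 171 and 72.2, and cluster D to 178, 197 and 138, and 186, 299 and 102. In each, tamoxifen libraries 1 and 2 were above all no-tamoxifen libraries except in cluster D, where library 1 was below no-tamoxifen library 2. Tamoxifen library 3 was the lowest of the 6 in all 3 clusters. It was also the lowest in summed endothelial markers, at 8118 normalised reads against 12188 to 19721 in the other 5 libraries, and the part of this in the result was not tested. With column 6 as a no-tamoxifen library and column 10 as a tamoxifen library, the differences in mean sum for clusters A, B and D turned from 77.2, 22.2 and 25.1 normalised reads to -22.8, -62.6 and -81.6.

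The most 5′ genes, which mark the tail end of the axis and the distal limb, were also close to 0 in the 3 no-tamoxifen libraries compared. The 9 genes of groups 11 to 13 had 0, 1 and 1 reads without tamoxifen and 15, 17 and 7 with it, or 0 to 1.08 against 15.4, 16.2 and 4.91 normalised reads. The Poisson interval of tamoxifen library 3 (1.97 to 10.1) again overlaps the no-tamoxifen intervals, whose highest bound is 6.02, which again is not a test. The direction again depends on the header. Column 6, a no-tamoxifen library with the names over the last 8 value columns, summed to 285 normalised reads for these genes. Column 10 summed to 0. Hoxd11, needed for forelimb and kidney patterning, had no read without tamoxifen and 1.02, 4.75 and 2.81 normalised reads with it. Hoxa11, its paralog, had 0, 0 and 0.761, and 2.05, 3.80 and 1.40. Hoxd13, the distal limb and genital gene at the end of cluster D, had 0, 1.08 and 0, and 8.20, 4.75 and 0. Hoxa13, Hoxb13 and Hoxd12 had reads in 1 tamoxifen library each. Hoxa10 had 0.868, 4.32 and 0.761 without tamoxifen and 19.5, 7.601 and 1.40 with it, so tamoxifen library 3 falls within the other group. The highest-numbered gene with a mean of at least 1 normalised read was Hoxa11, Hoxb9, Hoxc10 and Hoxd13 in the 4 clusters.

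**Figure D4:**
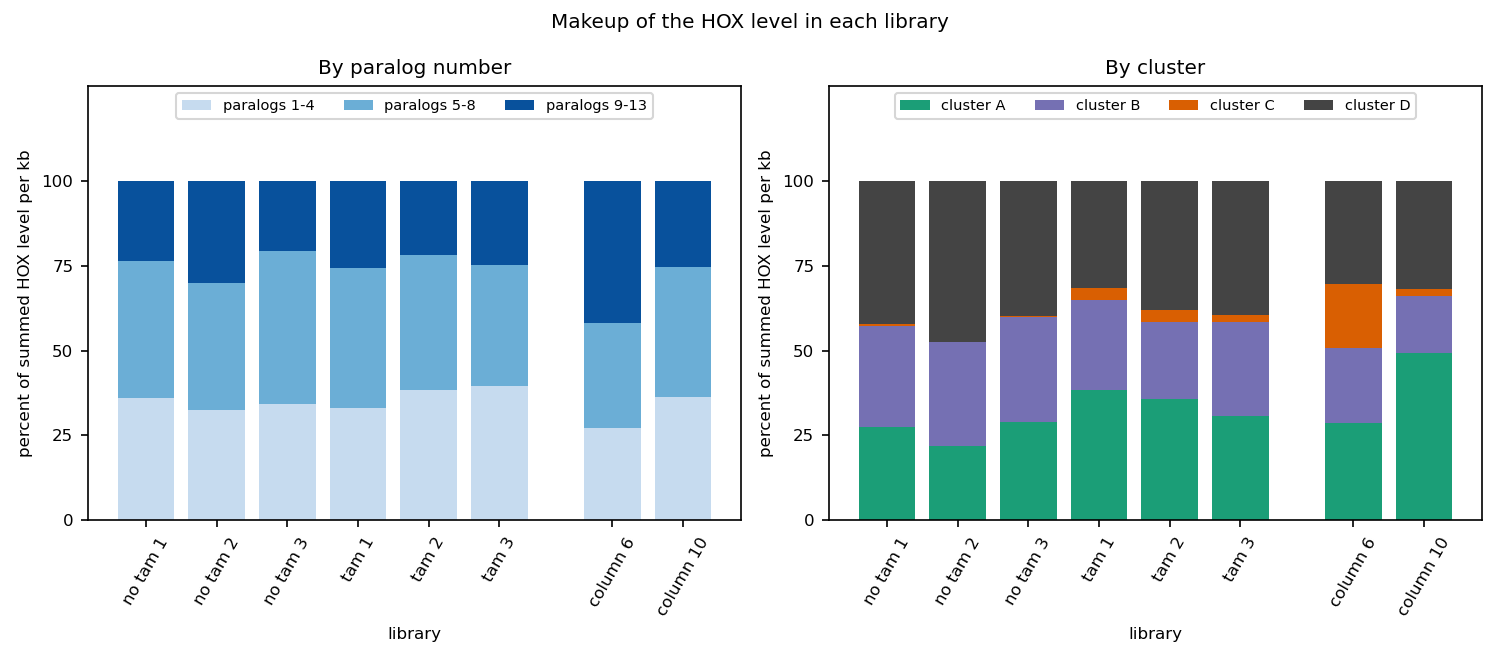
Stacked bars of the percent of the summed HOX signal per kb held by paralog groups 1 to 4, 5 to 8 and 9 to 13 (left) and by clusters (right) in each library. Groups 9 to 13 held 20.5% to 30.1% in the 6 compared libraries and 41.8% in column 6, and cluster C held at most 3.67% in the 6 and 18.8% in column 6.

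The bulk of the signal lay at similar positions along the axis in the 6 libraries. Groups 1 to 4 held 32.6% to 36.1% of the HOX signal per kb without tamoxifen and 33.1% to 39.4% with it. Groups 5 to 8 held 37.3% to 45.2%, and 35.8% to 41.3%. Groups 9 to 13 held 20.5% to 30.1%, and 21.8% to 25.6%, most of it from group 9. Weighted by level per kb, the mean paralog number of no-tamoxifen libraries 1 to 3 was 5.97, 6.38 and 6.05, and that of tamoxifen libraries 1 to 3 was 6.06, 5.79 and 5.99, so the groups overlap on this measure. Cluster A held 22.0% to 29.1% without tamoxifen and 30.8% to 38.4% with it, and cluster B 29.8% to 30.7%, and 22.7% to 27.7%. Cluster D held 39.9% to 47.3%, and 31.5% to 39.5%. With cluster C, given above, no cluster had groups that overlap in share, although the summed levels of A, B and D do overlap. The shares sum to 100% in each library, so the clusters are not separate results. They also depend on the header, as column 6 held 28.8%, 22.0%, 18.8% and 30.5% for A to D. As a no-tamoxifen library it makes the groups overlap in B, C and D, and as a tamoxifen library in A. Groups 10 to 13 held 1.83% to 3.63% without tamoxifen and 5.45% to 8.37% with it, from 7 to 12 reads and from 14 to 44 reads per library.

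Between the groups, 12 of the 39 HOX genes were tested, those whose mean over the 6 libraries reached 10 normalised reads, 4 in each of clusters A, B and D. The other 27, with all of cluster C among them, were too low. limma, fitted on log2(normalised reads + 1) over 13480 genes with Benjamini-Hochberg adjustment, called none of the 12 at an adjusted p of 0.05, and none had an unadjusted p under 0.05. Over all genes it called 6 higher with tamoxifen (0.0445%) and none lower (0%), while at an unadjusted p under 0.05 the shares were 4.89% higher and 4.12% lower. edgeR and DESeq2, run on the whole reads recovered from the table, also called none of the 12, and each had 1, Hoxa5, at an unadjusted p under 0.05. Of all genes edgeR called 0.0371% higher and 0% lower, and had 6.85% higher and 3.09% lower at the unadjusted threshold. DESeq2 called 1.83% higher and 0.208% lower, and had 6.18% and 3.26% at the unadjusted threshold. The log2 difference, tamoxifen minus no tamoxifen, was positive for 8 of the 12 and had a median of 0.22, against -0.02 over all genes tested. By cluster the median was 0.44 for A, with 4 of 4 positive, 0.26 for B and -0.01 for D, each with 2 of 4 positive. With tamoxifen library 3 as the only tamoxifen library, the 4 genes of cluster A were all negative, from -1.14 to -0.12.

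Hoxa5 had the lowest p of the 12, at a log2 difference of 1.01 ± 0.51 (SE; 95% interval -0.16 to 2.18; limma adjusted p = 0.587). Its mean was 28.1 ± 3.06 normalised reads (SD, n = 3) without tamoxifen and 68.2 ± 40.5 with it. The spread came from tamoxifen library 3, which lay below all 3 no-tamoxifen libraries. Without that library limma called Hoxa5 at 1.65 ± 0.30 (adjusted p = 0.00182), 1 of 12 HOX genes, where 7.32% of all genes were called higher and 3.48% lower. With tamoxifen library 3 as the only tamoxifen library the difference was -0.27. That sign follows from the place of this library below all 3 no-tamoxifen libraries. In that setting 7 of the 12 genes took the opposite sign. Leaving out tamoxifen library 3 keeps the 2 libraries with high mesenchymal sums, and their part in the difference was not tested.

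Hoxb4 was the only tested HOX gene whose groups did not overlap, where 6.24% of all tested genes were higher without overlap and 7.62% lower. Its difference was 0.56 ± 0.32 (SE; 95% interval -0.18 to 1.30; limma adjusted p = 0.620), from 26.9 ± 6.84 to 39.7 ± 6.42 normalised reads (SD, n = 3). With tamoxifen library 3 as the only tamoxifen library the difference was 0.29, and its sign follows from the lack of overlap. Hoxd3 followed at 0.72 ± 0.53, Hoxb3 at 0.57 ± 0.47 and Hoxa9 at 0.54 ± 0.48 (limma adjusted p of 0.698, 0.727 and 0.750). Leaving out 1 library gave 0.18 to 1.16 for Hoxd3, 0.25 to 0.97 for Hoxb3 and 0.27 to 0.92 for Hoxa9, each lowest without tamoxifen library 2 and highest without tamoxifen library 3. Hoxd3 had 19.96, 11.9 and 19.8 normalised reads without tamoxifen and 24.6, 60.8 and 14.7 with it, so that tamoxifen library 2 carried its mean. Hoxa9, a gene of blood progenitors and the posterior trunk, had 11.3, 24.8 and 15.2, and 27.7, 36.1 and 14.03. Hoxb8, a thoracic gene also active in myeloid progenitors, had the lowest difference, -0.73 ± 0.59 (limma adjusted p = 0.721). It had 9.54, 10.8 and 21.3 without tamoxifen and 14.3, 5.70 and 4.91 with it. The remaining genes were closer to no difference but with wide errors: Hoxa7 at 0.34 ± 0.60, Hoxd4 at 0.10 ± 0.41, Hoxa3 at 0.10 ± 0.60, Hoxb9 at -0.04 ± 0.69, Hoxd8 at -0.12 ± 0.42 and Hoxd9 at -0.19 ± 0.34 (limma adjusted p from 0.893 to 0.991). The narrowest of the 12 intervals, that of Hoxb4, reaches from -0.18 to 1.30, so the data bound these differences only loosely.

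**Figure D5:**
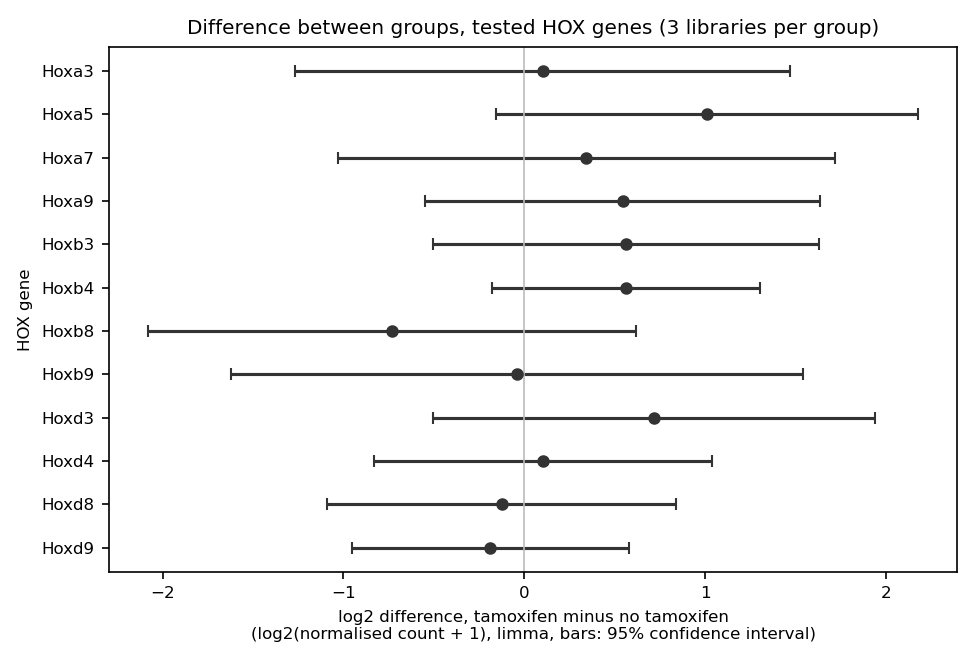
log2 difference (tamoxifen minus no tamoxifen) of the 12 tested HOX genes with the 95% interval from limma, in cluster and paralog order. All 12 intervals cross 0, and Hoxa5 at 1.01 and Hoxb8 at -0.73 are the extremes.

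Among the genes under the filter, reads in 1 group only were all on the side of tamoxifen. Of the 25 with a read in the 6 libraries, 10 (40%) had reads with tamoxifen only and 0 without tamoxifen only, against 15.7% and 10.4% of the 5450 genes under the filter in the table. Over the 37 HOX genes with a read, 6 were higher with tamoxifen without overlap (16.2%; Hoxa11, Hoxb4, Hoxc4, Hoxc6 and Hoxd11 among them) and none lower, against 5.9% and 6.36% of all genes. Column 6 was above all 6 libraries for each of the genes named here, so this count depends on the header too. Without any filter limma called none of the 37, where it called 0.0317% of all genes higher and 0% lower. Of the 37, 6 had an unadjusted p under 0.05, all higher, beside 5.23% of all genes higher and 3.58% lower. Among these were Hoxa11, Hoxc4, Hoxc5, Hoxc6 and Hoxd11, named after their values were seen. Hoxd11 had the lowest adjusted p, 0.418 in limma and 0.398 in edgeR. edgeR without a filter also called none of the 37 and had 6 at an unadjusted p under 0.05, Hoxa5 in place of Hoxa11. Of all genes it called 0.074% higher and 0.00528% lower, with 6.47% and 2.76% at the unadjusted threshold. Tamoxifen library 2 was above tamoxifen library 3 in each of the 5 genes named, whereas tamoxifen library 1 was below library 3 for Hoxc4 and Hoxd11.

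These counts were also taken without tamoxifen libraries 1 and 2, which had high mesenchymal and cartilage sums. Leaving libraries out can only lower or keep a count of genes with reads only with tamoxifen. Each count is therefore read beside the share of all genes. Of the 25 low genes, 4 (16%: Hoxc4, Hoxc6, Hoxc11 and Hoxd11) had reads in tamoxifen library 3 and none without tamoxifen, and 1 (Hoxd13) had the reverse, against 5.08% and 29.7% of the 5450 genes. Of the 37 HOX genes, tamoxifen library 3 lay above all 3 no-tamoxifen libraries for 7 (18.9%) and below all 3 for 10 (27%), against 25.6% and 24.1% of all genes. The 7 included Hoxc11, which had no other read in the 6 libraries. The 10, a share close to that of all genes, were Hoxa3, Hoxa5, Hoxb2, Hoxb7, Hoxb8, Hoxb9, Hoxd4, Hoxd8, Hoxd9 and Hoxd10.

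Column 6 had a different HOX pattern from the 6 libraries. It had reads for 38 of 39 genes, all but Hoxb1, although at 8695745 reads in genes it was the shallowest. It was above all 6 libraries for 30 of 39 genes, 8 each in clusters A, B and C and 6 in cluster D, and below them for none. Cluster C summed to 271 normalised reads (Poisson 95% interval 227 to 321) and held 18.8% of the HOX signal per kb. Groups 11 to 13 summed to 285, with Hoxd13 at 128.2, Hoxa11 at 71.2 and Hoxd11 at 42.7. Hoxc5 was at 79.3, Hoxc4 at 54.9 and Hoxa10 at 71.2. The mean paralog number weighted by level was 7.17. The genes that lead in the 6 libraries were closer to their levels there, with Hoxd9 at 75.3 and Hoxd8, inside the range of the 6, at 69.2. Column 6 is also the column with the highest mesenchymal sum and the lowest macrophage sum, and the part of these in its pattern was not tested.

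Column 10 lay at the other end. It was above the 6 libraries for none of the 39 genes and below all of them for 14, of which 7 were in cluster B and 5 in cluster D. Hoxd8 was at 10.2 normalised reads, Hoxd9 at 22.8 and Hoxd3 at 1.199. Hoxa5, at 25.8, lay within the range of the 6 libraries. Its 5 reads of cluster C came from Hoxc4 and Hoxc8. Cluster A held 49.4% of its HOX signal per kb, against 22.0% to 38.4% in the 6 libraries.

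Genes that act with or upstream of HOX genes were read from lists chosen with earlier results of these data known, and no member was called. Of the 9 genes for PBX, MEIS and PKNOX cofactors, 8 were tested and 6 were positive, with a median log2 difference of 0.23. They summed to 2143 to 2262 normalised reads without tamoxifen and 2275 to 2449 with it. The lowest p were those of Meis2, at 0.47 ± 0.26 (limma adjusted p = 0.609), and Meis3, at 0.62 ± 0.39 (0.645). Of 16 retinoid and axial regulators, 9 were tested and 8 were positive, with a median of 0.20. Egr2, a hindbrain segment and immediate early gene, was at 0.98 ± 0.31 (limma adjusted p = 0.462) and Gdf11, a ligand that sets the trunk-to-tail transition, at 0.85 ± 0.35 (0.537). The axial regulators Cdx1, Cdx2 and Cdx4 had no read in the 6 libraries. All 18 Polycomb and trithorax genes, which keep HOX clusters closed or open, were tested, 10 were positive and the median was 0.06. Kdm6a, for an H3K27 demethylase, was at -0.40 ± 0.14 (limma adjusted p = 0.475) and Kmt2a, listed as Mll1, for an H3K4 methyltransferase, at 0.31 ± 0.15 (0.573).

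Further genes mark position outside the HOX code. Of 12 genes of regional mesoderm and limb, only Tbx15 passed the filter, at 2.51 ± 0.95 (limma adjusted p = 0.505). It had 1.74, 5.401 and 3.80 normalised reads without tamoxifen, 44.1, 65.6 and 4.21 with it and 507 in column 6. The 12 genes summed to 17.5 to 30.4 without tamoxifen and 122, 195 and 19.6 with it. The 13 homeobox genes listed for the head, not all of them confined to it, included Otx2 and En1. None of them passed the filter, and they summed to 3.04 to 6.94 without tamoxifen, 28.7, 36.1 and 0.701 with it and 413 in column 6. Both lists were high in tamoxifen libraries 1 and 2 and not in library 3, as were the mesenchymal and cartilage markers. Of 18 noncoding genes of the HOX clusters, 10 were in the table and none passed the filter. Hoxa11os, listed as Hoxa11as and antisense to Hoxa11, had 0 to 4.32 normalised reads without tamoxifen, 0 to 4.75 with it and 167 in column 6. Hotair, from cluster C, had 1 read, in tamoxifen library 2.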

How the data were processed

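RNA from cells sorted as endothelial was depleted of ribosomal RNA and sequenced, per the labels' protocols. The authors deposited a table of normalised read counts per gene symbol, a signal unit that is comparable between libraries after scaling. STAR, DESeq2 and HTSeq 0.11.2 are listed in the submitters' processing notes, with the builds hg38 and mm10 and no roles. Strand and annotation are not given in the sources used here. All deposited values (100%) were whole multiples of 1 step per column within 0.001 reads, so whole reads were recovered. Of the 9 value columns, 1 was not used.

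The main test was limma 3.58.1 (R 4.3.3) on log2(value + 1), with group as the only term, a mean-variance trend, a filter at a mean of 10 over 6 libraries and Benjamini-Hochberg adjustment over 13480 genes. A fold on this scale understates the change of low genes. Alternatives were edgeR 4.0.16 and DESeq2 1.42.0 on recovered reads, pseudocounts of 0.5 and 5, a filter at a mean of 1 or none, TMM scaling, a replicate block, both placements of the header, and each library left out. The tests were checked on simulated data with the same dispersion for every gene and no outlying library. That check does not cover the spread seen among the tamoxifen libraries. Levels per kb use the longest protein-coding transcript linked to a RefSeq mRNA, or the longest protein-coding one where none was linked (GENCODE M21, mm10). Coordinates are 1-based. The members and lists were chosen with earlier results of these data known. Named with statistics were the 10 tested genes of lowest p, to which the other 2 tested genes were added, and with values the 2 highest genes per kb of each cluster, its highest-numbered gene with a mean of at least 1, and genes at 0. Of each context list the 2 members of lowest p are named. The endothelial, macrophage, neutrophil, haematopoietic progenitor, mesenchymal and cartilage marker lists are given by their sums. Some genes and sequences are not reported here.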

Additional observations from a re-analysis of the deposited data

Results flagged for a closer look

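Column 6, whose group depends on how the short header is placed, held HOX signal above that of the no-tamoxifen libraries in every cluster, and column 10, which may have no name, in cluster C only. In column 6 the summed normalised reads were 407 for cluster A, 350 for cluster B, 271 for cluster C and 460 for cluster D, against highest no-tamoxifen values of 92.0, 122, 1.74 and 197. Groups 11 to 13 summed to 285 in column 6, against at most 1.08. In column 10 cluster C summed to 2.998 (5 reads; Poisson 95% interval 0.973 to 6.996), against 1.74, which lies inside that interval. These columns entered no comparison of the main result.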

How the results depend on the processing

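No HOX gene was called by limma, edgeR or DESeq2 under any setting run with all 6 libraries. Leaving out 1 library gave 0 to 1 called, the 1 being Hoxa5 without tamoxifen library 3, and a median log2 difference of the tested HOX genes of -0.12 to 0.70, against 0.22. That median was -0.46 with the names over the last 8 value columns and, in settings chosen after seeing the data, 0.89 in edgeR without a filter and -0.48 with tamoxifen library 3 as the only tamoxifen library. With the names over the last 8 columns the differences in summed level (tamoxifen minus no tamoxifen) were -22.8, -62.6, -55.9 and -81.6 normalised reads for clusters A to D, against 77.2, 22.2, 14.6 and 25.1. With the names over the first 8 they were 138, 76.8, 78.3 and 91.1, and that setting leaves out the first value column. The causes were not tested. Leaving out 1 library gave 40.6 to 125 for A, 2.33 to 51.7 for B, 10.6 to 20.4 for C and -26.7 to 72.1 for D.

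Single genes turned as follows in log2 difference. Hoxb9 was at 0.026 with a pseudocount of 5, 0.24 in edgeR, 0.22 in edgeR without a filter, 0.23 in DESeq2 and 0.56 with names over the first 8 columns. Hoxd8 was at 0.032 in edgeR, 0.0119 in edgeR without a filter, 0.0118 in DESeq2 and 0.015 with names over the first 8. With names over the last 8, Hoxa3 was at -0.62, Hoxb3 at -0.36, Hoxd3 at -0.59 and Hoxd4 at -0.24. Leaving out 1 library gave values of both signs for Hoxa3 (-0.43 to 0.72), Hoxa7 (-0.049 to 0.83), Hoxb9 (-0.47 to 0.71), Hoxd4 (-0.25 to 0.54), Hoxd8 (-0.50 to 0.31) and Hoxd9 (-0.42 to 0.068). With tamoxifen library 3 as the only tamoxifen library, whose spread is assumed to be that of the other group, Hoxa3 was at -1.14, Hoxa5 at -0.27, Hoxa7 at -0.12, Hoxa9 at -0.20, Hoxb3 at -0.25, Hoxd3 at -0.18 and Hoxd4 at -0.77. The other 185 of 215 values of single genes kept their sign and their side of the threshold, and 1, Hoxa5 without tamoxifen library 3, came to pass it.

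Over all genes limma called 6, DESeq2 275, limma with the replicate block 21, edgeR without a filter 15, limma with names over the first 8 columns 0, and limma without tamoxifen library 3 called 1459. Same-numbered libraries correlated at 0.20, 0.04 and 0.34 in their deviations, and the other pairs at -0.33 to 0.33. With 3 libraries per group these values cannot decide whether same-numbered libraries share more than a number. With the replicate block 0 HOX genes were called (limma lowest adjusted p = 0.407, Hoxa5), the median log2 difference was 0.22, and not every library correlated best with its own number. Hoxb8 fell under the filter without no-tamoxifen library 3. Depth limits the low genes: 27 of 39 genes were under a mean of 10 normalised reads, and a gene of cluster C had a few reads at most in the 6 libraries.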
